A study of Mus musculus with 2 samples.

Results

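The genes described here are the nuclear genes that encode the mitochondrial respiratory chain and ATP synthase, read through the openness of their promoters in mouse frontal cortex. Members were chosen by symbol alone from the protein-coding genes of GENCODE M21: all genes whose symbols start with Nduf, Uqcr, Atp5 or Cox4 to Cox8, and the genes Sdha, Sdhb, Sdhc and Sdhd. This gave 94 gene records among 21938 nuclear protein-coding genes. The symbol Atp5o stands for 2 records, so the 94 records carry 93 symbols.

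Open chromatin was mapped by DNase-seq, an assay that reads where the enzyme DNase I can reach the DNA of nuclei. Both libraries came from frontal cortex of female B6CASTF1/J mice, the F1 offspring of a C57BL/6J and a CAST/EiJ parent, at 10 days of age. They are biological replicates 1 and 2 of 1 group, so no conditions were compared and no test between groups exists. The labels list 2 biosamples under 1 donor record and add the mark 3x without explaining it, so whether the libraries came from separate animals or pools is not known.

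The respiratory chain moves electrons from NADH and succinate to oxygen through complexes I to IV and pumps protons across the inner mitochondrial membrane, and complex V, the ATP synthase, uses the proton gradient to make ATP. The mitochondrial genome encodes a few hydrophobic core subunits, and nuclear genes spread over many chromosomes encode the rest. Neurons rely on this pathway for most of their ATP, and the transcription factors NRF1 and GABP (an ETS factor) were named nuclear respiratory factors for their binding to promoters of such genes. Some subunits of complex IV exist as tissue isoforms, with a second gene used mainly in muscle, testis, lung or vascular wall cells.

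Stretches of promoter that hold NRF1 consensus letters are shown first, because most such letters at members lay under footprints. So did most of those at all genes open in both libraries. A letter match is not evidence that the factor bound there. A footprint is a short stretch inside open chromatin that is protected from DNase I. Each sequence below holds a match to the NRF1 letters GCGCANGCG that lay at least 50% under footprints in both libraries and upstream of the start of the gene, at the 8 such promoters with the highest signal. Capitals mark the match, or merged overlapping matches, and every sequence reads 5′ to 3′ along the gene's own strand in GRCm38 (mm10). The Sdha stretch touches an annotated exon and the others lie outside exons.
Ndufaf4, chr4:24897950-24897999, plus strand: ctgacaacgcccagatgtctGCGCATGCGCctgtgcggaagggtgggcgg
Cox6a1, chr5:115349047-115349095, minus strand: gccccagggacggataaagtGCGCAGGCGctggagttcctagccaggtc
Sdha, chr13:74350277-74350305, minus strand: ggggcgtgttGCGCAGGCGcagaatcttc
Ndufs5, chr4:123718256-123718304, minus strand: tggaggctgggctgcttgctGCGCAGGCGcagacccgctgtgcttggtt
Atp5mpl, chr12:111967043-111967091, minus strand: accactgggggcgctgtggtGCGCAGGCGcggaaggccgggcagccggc
Ndufa11, chr17:56717692-56717721, plus strand: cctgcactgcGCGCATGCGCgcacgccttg
Atp5h, chr11:115420032-115420080, minus strand: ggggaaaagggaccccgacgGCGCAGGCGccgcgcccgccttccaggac
Ndufb4, chr16:37654531-37654579, minus strand: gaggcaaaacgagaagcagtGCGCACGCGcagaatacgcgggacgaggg

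The centres of these matches lay from -108 bp (Ndufaf4) to -11 bp (Sdha) of the reference start, where minus is upstream. Matches of 6 of the 8 genes were covered in full by footprints in both libraries. At Atp5mpl 88.9% of the match was covered in each library, and at Atp5h 66.7% in replicate 1 and 100% in replicate 2.

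Nearly every member had an open promoter, and the members without one were 6 tissue isoforms of complex IV and the second record named Atp5o. A promoter was counted as open if a peak lay at most 500 bp from a transcript start of the gene. In replicate 1, 87 of the 94 members were open (92.6%), against 66.1% of all protein-coding genes, and in replicate 2 the same number were open, against 63.3%. All 87 were open in both libraries, against 62.8% of all genes. The 7 members without a peak in either library were Cox4i2, Cox6a2, Cox7b2, Cox8b, Cox8c, Ndufa4l2 and the second record named Atp5o.

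Promoter CpG content differed between members and genes at large, and it goes with openness in general. The reference promoter window runs from 250 bp before to 50 bp after the start of the best supported coding transcript. Its median CpG observed/expected ratio was 0.804 for members and 0.557 for all genes. Among promoters with a ratio of at least 0.6, all 68 members were open in both libraries, against 94.2% of all such genes. Among CpG-poor promoters, 19 of 26 members were open (73.1%), against 35.0% of all such genes. At 16 of the 19 a peak lay within 100 bp of the reference start, among them Ndufb10, a membrane-arm subunit gene of complex I, with a ratio of 0.353 and signals of 5.55 in replicate 1 and 7.12 in replicate 2. At the other 3, Atp5f1, Atp5j2 and Ndufa5, no peak lay within 100 bp of that start, so their ratio and their signal belong to different places. Members had a median of 4 annotated start sites and all genes 3.

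**Figure D1:**
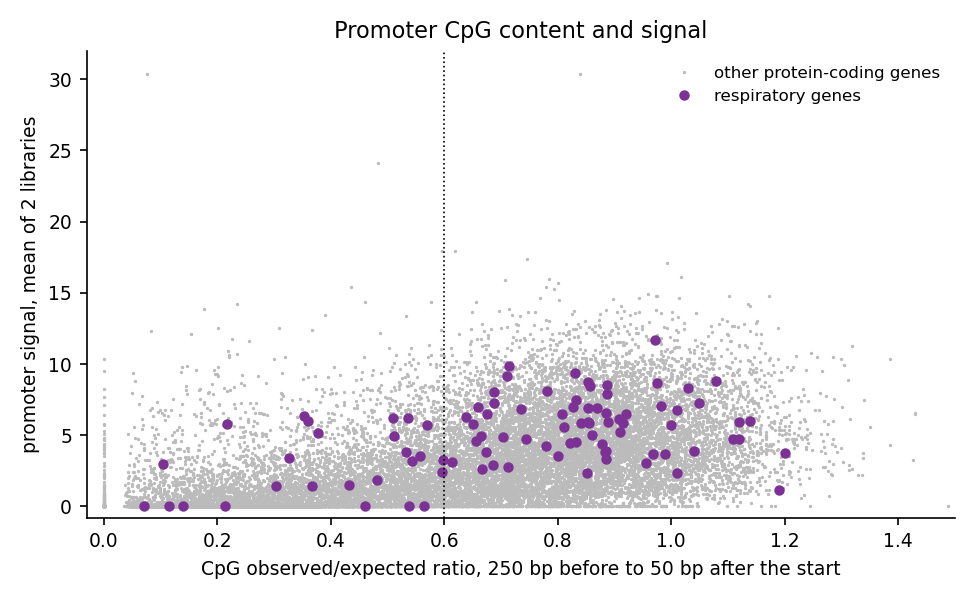
Each point is 1 gene, with the CpG observed/expected ratio of the reference promoter window on the x axis and the promoter signal (mean of the 2 libraries, 0 where no peak was listed) on the y axis; the dotted line marks 0.6. Respiratory genes (purple) right of the line all have a signal, and the 7 at 0 lie left of it; 3 other genes with ratios above 1.5 or signals above the axis fall outside the axes.

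Promoter signal, the authors' value of the strongest peak in the window, was also high among members. Members had a median of 4.88 in replicate 1 and 5.46 in replicate 2, against 1.38 and 1.56 for all genes, with members and genes without a peak counted as 0. CpG-rich genes alone had medians of 3.89 and 4.34, and 59 of the 94 members lay above these in each library. The scaling of the signal is not stated, and in tissue a higher signal from more cells with an open site and from a more open site per cell cannot be told apart. As deposited, 77 of the 87 open members had a higher signal in replicate 2. Peaks shared 1 to 1 by the libraries differed in the same direction, by a median log2 ratio (replicate 1 over replicate 2) of -0.25. After centring on that value, the members' log2 ratios had an SD of 0.22 (n = 87), next to 0.23 for all 13776 genes open in both libraries. At 3 members the centred difference passed 0.5 on the log2 scale: Cox6b2 at 1.08, Ndufa11 at 0.62 and Cox7b at 0.61.

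**Figure D2:**
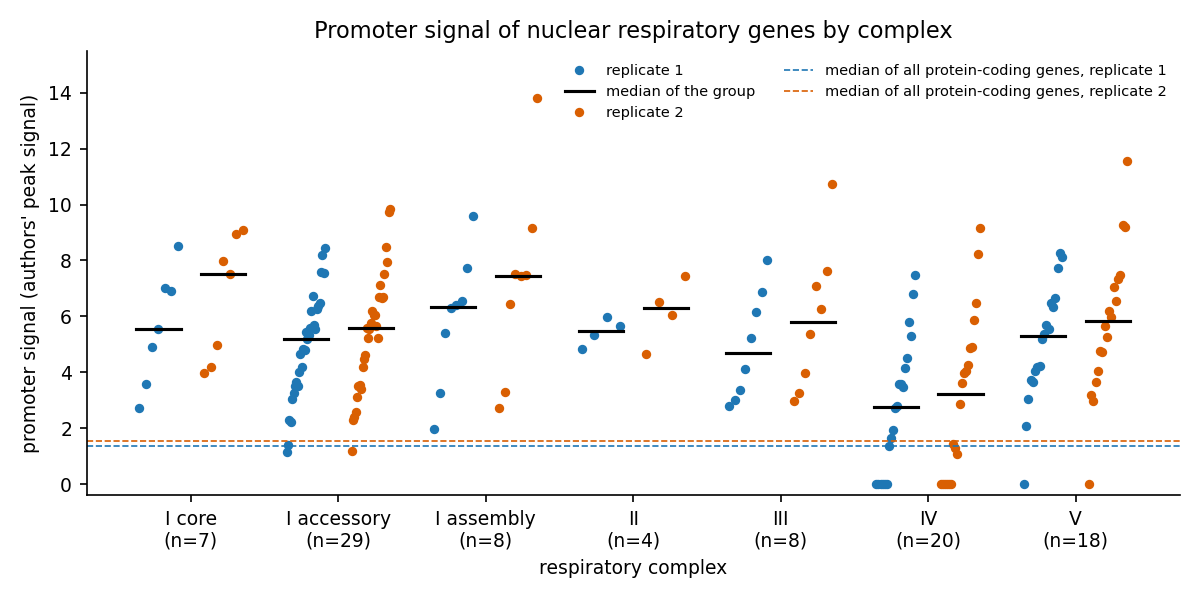
Points are members by complex, with the promoter signal on the y axis for replicate 1 (blue) and replicate 2 (orange); black bars are group medians and dashed lines the medians of all protein-coding genes. Group medians run from 2.77 (complex IV, replicate 1) to 7.52 (core of complex I, replicate 2), and the points at 0 are 6 genes of complex IV and 1 of complex V.

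Complex I oxidises NADH, and its nuclear core subunits hold the flavin and iron-sulfur clusters that carry the electrons. All 7 were open in both libraries, with medians of 5.53 and 7.52. Ndufs1, which encodes the largest core subunit, was the highest, with 8.51 in replicate 1 and 9.08 in replicate 2. Ndufv1, which encodes the subunit that binds NADH and the flavin, had 7.01 and 7.52. Ndufv1 lay above Ndufs7 in replicate 1 and below it in replicate 2. Ndufs7, which encodes an iron-sulfur subunit, had 5.53 and 7.98, and Ndufs8, which encodes another, had 4.91 and 4.96. Ndufv2 followed with 3.60 and 4.20, and Ndufs3 was the lowest, with 2.74 and 3.99.

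The 29 accessory subunits of complex I, which surround the core and stabilise it, were all open too, with medians of 5.18 and 5.59. By the mean of the libraries Ndufb5 was the highest, with 8.45 and 9.82, followed by Ndufa7, with 7.57 and 9.73, and Ndufv3, with 8.21 and 7.95. Ndufa8 had 7.58 and 8.49. Ndufs4, whose loss in mice gives a fatal encephalopathy used as a model of Leigh syndrome, had 4.79 and 5.56. Ndufab1, which encodes the mitochondrial acyl carrier protein, was among the lower ones, with 3.04 and 3.10. The lowest were Ndufc2, with 1.39 and 2.31, and Ndufa13, also known as the cell death regulator GRIM-19, with 1.14 and 1.17. Both libraries had Ndufb5 as the highest and Ndufa13 as the lowest accessory gene. The strongest peak of Ndufa13 was not the same in the libraries, and within 100 bp of its reference start the signals were 1.14 and 0.970. Ndufa11 had 6.73 and 5.21, but its strongest peak in replicate 1 lay 657 bp from its nearest start, on the side of its neighbour Vmac. Within 100 bp of the Ndufa11 reference start the signals were 4.53 and 5.21.

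Assembly factors of complex I build the complex without staying in it. All 8 were open, with the medians 6.35 and 7.45, and they included the highest promoter of all members. Ndufaf8 had 9.57 in replicate 1 and 13.8 in replicate 2, above 98.2% and 99.6% of all genes. That peak also lay within 500 bp of the start of Tepsin, so its signal cannot be assigned to one gene. Ndufaf4 followed with 7.71 and 9.17. Ndufaf5, which encodes a factor that modifies a core subunit, had 6.56 and 7.47, close to Ndufaf2 with 6.39 and 7.44 and Ndufaf7, a methyltransferase gene, with 6.30 and 7.51. Ndufaf3 had 5.40 and 6.44. The lowest were Ndufaf6, with 3.25 and 3.28, and Ndufaf1, which encodes a chaperone of early intermediates, with 1.99 and 2.72.

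Complex II, succinate dehydrogenase, belongs to both the chain and the citric acid cycle and is encoded by nuclear genes only. Its 4 genes were all open, with medians of 5.49 and 6.29. Sdha, which encodes the flavoprotein, had 5.65 and 7.44, and Sdhb, which encodes the iron-sulfur subunit, had 5.99 and 6.04. The membrane anchor genes Sdhc and Sdhd had 5.33 and 6.53 and 4.84 and 4.67. The highest was Sdhb in replicate 1 and Sdha in replicate 2, so the libraries did not order them alike.

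Complex III passes electrons from ubiquinol to cytochrome c, and all 8 of its genes were open, with medians of 4.67 and 5.81. Uqcrq, which encodes a small subunit, was the highest, with 8.01 and 10.7. Uqcrfs1, the gene of the Rieske iron-sulfur protein, had 6.88 and 7.61. Uqcrc1 and Uqcrc2, which encode the paired core proteins, stood apart from each other, with 6.15 and 6.26 for Uqcrc1 and 2.79 and 2.99 for Uqcrc2, the lowest of the complex. Uqcr11 had 4.11 and 5.37, Uqcr10 had 3.37 and 3.99, and Uqcrb had 3.00 and 3.27. Uqcrh, which encodes the hinge protein, had 5.23 and 7.08, but that peak was centred 359 and 349 bp from its nearest start. Within 100 bp of the Uqcrh reference start the signals were 3.17 and 3.55.

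Complex IV, cytochrome c oxidase, had the lowest medians of the 7 groups, 2.77 and 3.23 with closed genes counted as 0, and 14 of its 20 genes were open. Ndufa4 is counted here, because its product, named as a complex I subunit, is found in complex IV. By the mean of the libraries Cox6a1 was the highest, with 7.48 and 9.17, followed by Cox6c, with 6.79 and 8.22, and Cox5b, with 5.28 and 6.47. Cox8a had 5.78 and 5.89 and Cox5a had 4.51 and 4.89. Cox4i1, which encodes a large nuclear subunit, had 3.58 and 3.99, and Cox7c had 2.81 and 3.61. Cox7a2l, which encodes a factor that joins complexes III and IV, had 3.58 and 4.04 and was also the open member of complex IV with most footprints across the libraries, 12 and 10.

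The 8 tissue isoform genes were set beside 8 broadly made genes of complex IV. These are their partners, with Cox8a the partner of both Cox8b and Cox8c, and Cox7a2l, which is paired with no isoform here. All 8 broadly made genes were open in both libraries, and 2 of the 8 isoforms (25.0%). All 8 isoforms had CpG-poor promoters (ratios of 0.115 to 0.564), a class in which 35.0% of all genes were open. Of the 8 broadly made genes, 7 were CpG-rich. The share of open isoforms was thus near that of CpG-poor genes at large. Among CpG-poor members, however, 19 of 26 were open in both libraries, 2 of them isoforms. The only closed CpG-poor member outside the isoforms was the second record named Atp5o. Cox7b, the CpG-poor gene among the broadly made ones (ratio 0.368), was open. Whether isoform type or CpG content goes with the closed state was not tested. Cox6a1 had 7.48 and 9.17, whereas Cox6a2, the heart and skeletal muscle isoform, was listed at 0 in both libraries. Cox8a had 5.78 and 5.89, whereas the muscle isoform gene Cox8b and the testis isoform gene Cox8c were at 0 in both. Cox4i1 had 3.58 and 3.99, against 0 and 0 for Cox4i2, an isoform gene known from lung and vascular wall cells, the latter also part of cortex tissue. Ndufa4 had 3.46 and 4.25, against 0 and 0 for Ndufa4l2, a hypoxia-induced paralogue also known from vascular wall cells. Cox7b had 1.65 and 1.29, against 0 and 0 for the testis isoform gene Cox7b2. At these 6 closed genes the authors' deposited cut-rate table listed no base under a false discovery rate of 0.05 in the window around a start, in either library. That table was made from the same libraries as the peaks, so it is no separate support for the closed state.

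The other two tissue isoforms were open, at levels below their partners. Cox7a1, the heart and muscle isoform, had 1.38 and 1.44, against 4.17 and 4.86 for Cox7a2. Cox6b2, the testis isoform, had 1.94 and 1.09, against 2.73 and 2.85 for Cox6b1. The Cox6b2 promoter was also the member whose libraries differed most. Replicate 1 listed 3 peaks and 8 footprints there, and replicate 2 listed 1 peak and 1 footprint, with lowest false discovery rates of 2.57e-21 and 0.00912. With the shorter of the authors' peak lists only 1 of the 8 tissue isoforms stayed open in both libraries. With a window of 2000 bp 4 were open, since peaks lay 1914 and 1954 bp from the start of Cox6a2 and 1847 bp from that of Ndufa4l2.

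**Figure D3:**
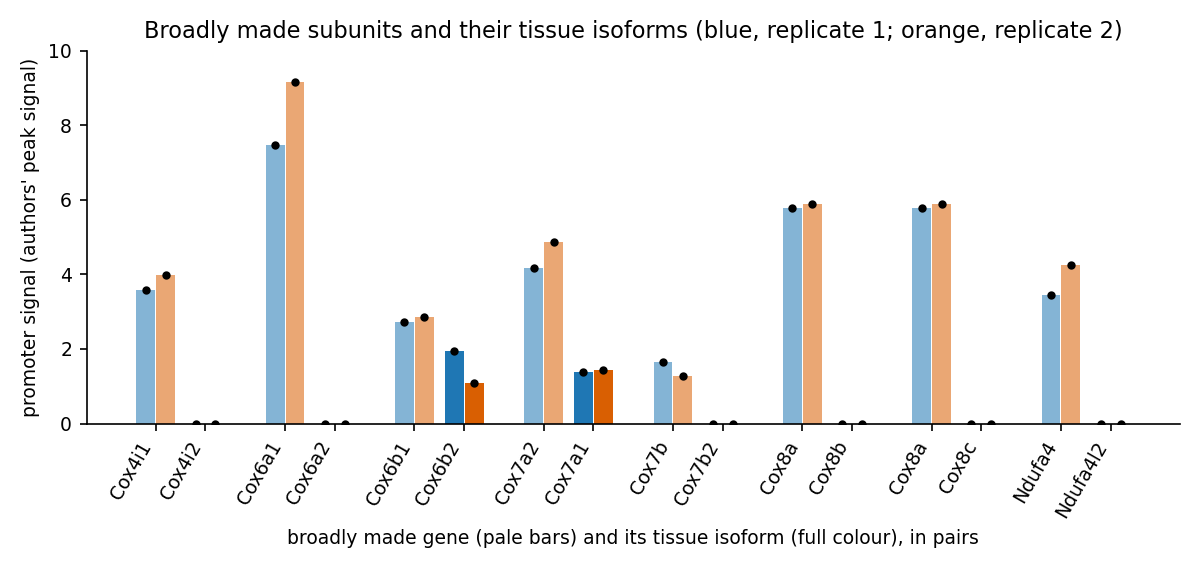
Bars with points give the promoter signal (y axis) in replicate 1 (blue) and replicate 2 (orange) for broadly made genes (pale) beside their tissue isoforms (full colour), and Cox8a is drawn beside both of its isoforms. Of the tissue isoforms, Cox6b2 and Cox7a1 have a signal, between 1.09 and 1.94, and the other 6 are at 0.

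The nearest peaks to the closed isoforms lay 2875 and 2895 bp from the Cox8b start, 11464 and 11473 bp from that of Cox4i2 and 13276 and 13256 bp from that of Cox8c. At Cox7b2 the nearest peak was 2399 bp away in replicate 1 and 23650 bp away in replicate 2. The Cox6a2 window held the only MEF2 consensus match of the 94 members, centred at -23 bp, and MEF2 factors are known activators of muscle genes. The match is shown in capitals because it lies in a promoter that is closed here, and 0% of it was under footprints in either library.
Cox6a2, chr7:128206396-128206425, minus strand: gagaaagcccCTAAAAATAGccatccatgt

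A check of the dissected tissue against marker genes used the same promoter rule. Of 8 cortical neuron and forebrain genes, 8 and 7 were open in replicates 1 and 2, next to 66.1% and 63.3% of all genes. Interneuron genes were open at 5 and 5 of 6, astrocyte and oligodendrocyte genes at 7 and 5 of 8, and microglial and endothelial genes at 5 and 3 of 8. Of 10 skeletal and heart muscle genes 2 and 1 were open (median 0 in both), with Ryr1 open in both at 1.06 and 1.60. Of 10 testis germ cell genes only Zpbp was open, at 3.19 and 4.38, and none of 6 liver genes was. The part of any cell type in the signal of Cox7a1 and Cox6b2 was not tested.

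Complex V makes ATP, and 17 of its 18 gene records were open, with medians of 5.28 and 5.83. The 3 genes that encode the same mature c subunit of the rotating ring differed in signal. Atp5g2 had 8.14 and 11.6, Atp5g1 had 8.25 and 9.19, and Atp5g3 had 4.05 and 4.77. Genes of the catalytic head ranged from Atp5b, the beta subunit gene, with 7.73 and 9.26, through Atp5c1 (gamma), with 6.64 and 7.48, Atp5d (delta), with 6.35 and 7.32, and Atp5e (epsilon), with 6.48 and 6.56, to Atp5a1 (alpha), with 3.66 and 4.06. Atp5b thus lay above Atp5a1 in both libraries. The strongest peaks of Atp5a1 and Atp5d were away from their reference starts, within 100 bp of which the signals were 1.84 and 1.71 for Atp5a1 and 4.79 and 4.69 for Atp5d.

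Stalk and membrane genes of complex V spread as widely. Atp5f1, the b subunit gene, had 5.37 and 6.19, and no peak within 100 bp of its reference start. Atp5h, the d subunit gene, had 5.68 and 5.99, and Atp5o, which encodes the oligomycin sensitivity protein, had 4.20 and 4.71. Atp5mpl, which encodes a small membrane subunit, had 5.53 and 7.06, and Atp5k, the e subunit gene, had 4.22 and 5.67. Atp5s, which encodes coupling factor B, had 5.20 and 5.28. The lowest open genes were Atp5j2, the f subunit gene, with 3.04 and 2.98, and Atp5l, the g subunit gene, with 2.07 and 3.20. The second record named Atp5o has a single start on chromosome 16 at 91926982, inside the Atp5o locus and 4519 bp from the nearest peak, so its closed state says nothing about Atp5o itself.

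The 3 X-linked members, Ndufa1, Ndufb11 and Cox7b, were among the lowest open promoters. Ndufb11 had 2.21 and 2.59, Ndufa1 had 2.29 and 2.39, and Cox7b had 1.65 and 1.29, next to medians of 5.30 and 5.82 for the 84 open autosomal members. Below the highest X-linked member lay 6 of the 84 in replicate 1 and 4 in replicate 2. X-linked genes at large were also lower: among genes open in both libraries, the medians were 1.73 and 1.86 for the 452 X-linked and 3.44 and 3.87 for the 13324 autosomal genes.

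Many respiratory genes share their promoter with a neighbour. A protein-coding gene on the other strand started within 1000 bp upstream of 28 members (29.8%), against 9.10% of all genes. Of the 87 open members, 34 had their strongest peak within 500 bp of the start of another protein-coding gene (39.1%), against 18.5% of genes open in both libraries, so for these the signal cannot be assigned to one gene. Among these 34 were Ndufaf8 (with Tepsin), Ndufs1 (with Eef1b2) and Uqcrq (with Gdf9), each the highest of its group. Atp5j, which encodes coupling factor 6, shares its open region with Gabpa, the gene of the DNA-binding GABP subunit. The strongest peak gave Atp5j 3.71 and 3.67, and within 100 bp of its reference start the signals were 2.20 and 2.98. Around all 12 of its starts lay 21 and 16 footprints, the highest counts of any member in replicate 1 and, tied with Atp5g2, in replicate 2. Ndufb5 and Ndufs6 share theirs with the mitochondrial ribosomal protein genes Mrpl47 and Mrpl36, and Sdhd with Timm8b, a gene of mitochondrial protein import. The medians with such an upstream neighbour, 5.49 and 5.83, were near those of open members without one, 4.91 and 5.67.

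Strongest peaks sat on the starts themselves. Their centres lay a median of 27 bp in replicate 1 and 29 bp in replicate 2 from the nearest start of the member, against 55 and 57 bp over all open genes, and 77 and 79 of the 87 lay within 100 bp. The median peak width was 220 and 228 bp. The strongest peaks of the libraries overlapped at 84 of the 87 open members, the exceptions being Ndufa11, Ndufa13 and Atp5l.

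Footprints were found at every open member in both libraries. With 87 of 94 members holding at least 1 within 500 bp of a start, the share was 92.6% in each library, against 65.0% and 61.2% of all genes. The number per open member was 1 to 21 in replicate 1 (median 7) and 1 to 16 in replicate 2 (median 6), next to medians of 8 and 6 over all open genes. The medians of members were thus not above those of open genes at large. By complex, and summed over the libraries, the most footprints were at Ndufs1 in the complex I core (14 and 11), at Ndufb9 and Ndufv3 among accessory subunits (12 and 9, 9 and 12), at Ndufaf8 among assembly factors (11 and 10), at Sdhb in complex II (10 and 7) and at Uqcrq in complex III (14 and 9).

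Footprints of members gathered close to the start. From 50 bp upstream to the start itself there were 0.931 footprints per open member in both libraries, against 0.787 and 0.737 per open gene overall. From 50 to 100 bp downstream the values were 0.816 and 0.828 for members and 0.628 and 0.479 for open genes. Further upstream the order turned, and from 200 to 150 bp upstream members had 0.356 and 0.264 and open genes 0.458 and 0.369.

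**Figure D4:**
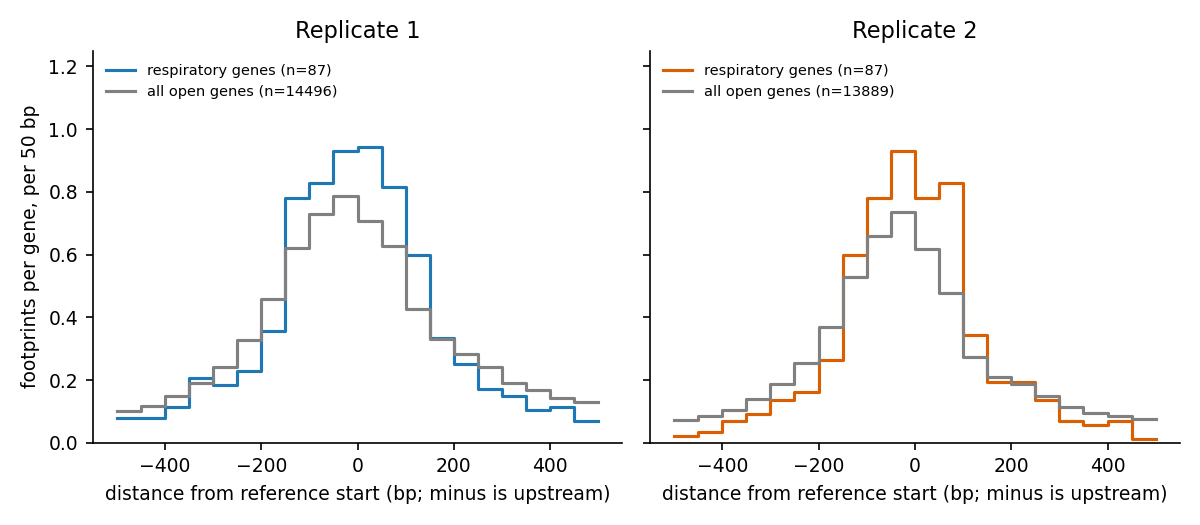
Footprints per gene in 50 bp steps (y axis) by distance of their centre from the reference start (x axis, upstream negative) for open respiratory genes (coloured) and all open genes (grey), with 1 panel per library. The coloured lines lie above the grey ones near the start, where members reach 0.931 to 0.943 per gene, and below them from 250 to 150 bp upstream.

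Exact matches to short consensus letters were then counted on both strands of the reference promoter window, with overlapping matches of 1 consensus merged. The NRF1 letters GCGCANGCG occurred at 17 of the 94 members (18.1%), against 8.61% of all genes and 16.5% of those with CpG-rich promoters, so members lay near the CpG-rich share. By complex they were found at 6 of 18 genes of complex V, 2 of 4 of complex II, 2 of 8 of complex III, 4 of 29 accessory subunits, 2 of 8 assembly factors, 1 of 20 genes of complex IV and 0 of 7 core genes of complex I. The ETS letters CCGGAAGT, which GABP binds, occurred at 6 members (6.38%), against 5.03% of all genes and 8.96% of CpG-rich ones. The YY1 letters AAGATGGCG occurred at 6 members (6.38%), against 1.86% and 3.54%. The letters TCAAGGTCA of estrogen-related receptors were at 2 (2.13%), against 0.392% and 0.185%.

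For other consensus sequences the members' share lay on either side of the background. SP factor letters GGGCGGG were at 27 members (28.7%), against 33.5% of all genes and 55.5% of CpG-rich ones. The NF-Y letters CCAAT were at 35 (37.2%), against 38.6% and 37.1%. CRE letters TGACGTCA were at 4 (4.26%), against 2.48% of all genes and 3.94% of CpG-rich ones. The E-box CACGTG was at 8 (8.51%), against 7.72% of all and 11.2% of CpG-rich genes. TATAAA was at 11 (11.7%), against 12.6% and 5.67%, and the muscle E-box CAGCTG at 13 (13.8%), against 15.6% and 12.8%. The MEF2 consensus was at 1 (1.06%), against 0.515% and 0.224%. Of the 87 open members, 26 had NRF1, ETS or YY1 letters in the window (29.9%), against 21.2% of genes open in both libraries, and 61 had none of the 3.

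**Figure D5:**
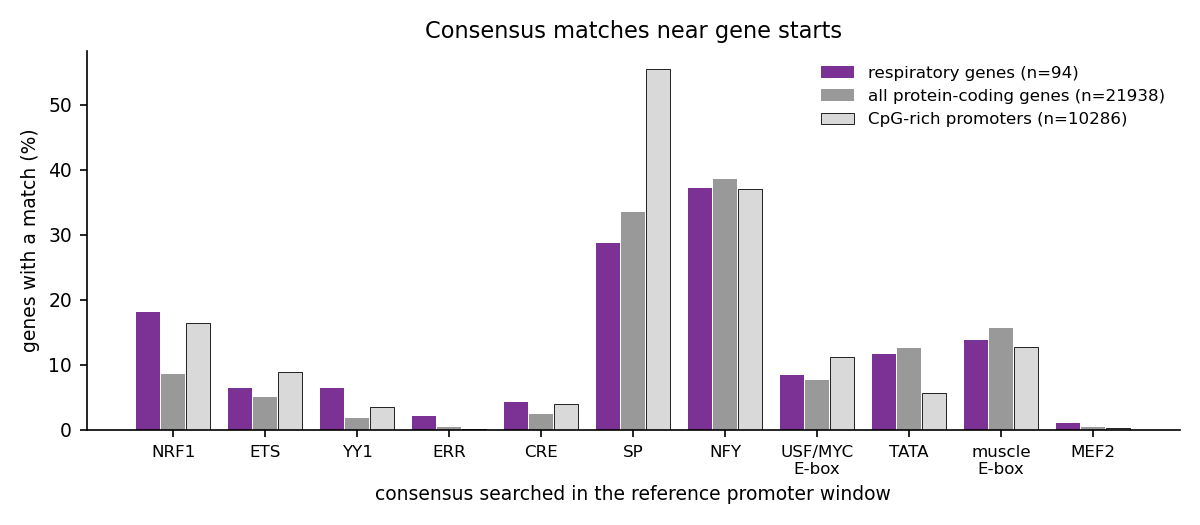
Bars give the percent of genes (y axis) with at least 1 exact match in the reference promoter window for each consensus (x axis), for respiratory genes, all protein-coding genes and those with CpG-rich promoters. NRF1 reaches 18.1%, 8.61% and 16.5% in these sets, and SP reaches 28.7%, 33.5% and 55.5%.

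NRF1 matches of members were nearly all under footprints. Of their 21 sites, 19 in replicate 1 (90.5%) and 20 in replicate 2 (95.2%) were covered by at least 50%, against 72.7% and 74.6% of 2133 sites at genes open in both libraries. Open members also had higher median signals than all genes open in both libraries, 5.23 and 5.67 against 3.34 and 3.76. Coverage at promoters of like signal was not compared. The 15 members with a site covered in both were Atp5g2, Ndufaf4, Cox6a1, Ndufa8, Ndufaf5, Sdha, Ndufs5, Atp5mpl, Ndufa11, Atp5h, Ndufb4, Atp5k, Sdhd, Uqcr11 and Atp5l. Their median signals were 5.68 and 6.70, next to 4.88 and 5.42 for the other 72 open members. Both sets spread widely, with Atp5l at 2.07 and 3.20 the lowest of the 15. The 15 were picked by footprints from the same libraries as the signal, and NRF1 letters were more frequent at CpG-rich promoters. Whether the letters go with a higher signal was therefore not tested. Sdha held 3 sites, centred at -54, -11 and 34 bp, all covered in both libraries. Uqcrc1 was the exception, with a site 25 bp after its start and 0% under footprints in either library, and Atp5g3 had 44.4% and 77.8% covered.

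ETS and YY1 matches were fewer and less evenly covered. Of 7 ETS sites, 6 (85.7%) and 2 (28.6%) were under footprints, against 41.7% and 34.4% of sites at all genes open in both libraries. The 2 covered in both libraries, at Ndufs1 and Uqcrh, are given here with the match in capitals on the gene strand. Of 6 YY1 sites, 4 (66.7%) and 2 (33.3%) were covered, against 45.0% and 40.3%, so for both factors the members lay above the background in replicate 1 and below it in replicate 2. The 2 YY1 sites covered in both, at Ndufaf8 and Ndufs7, are shown too. All of the ETS and YY1 stretches shown overlap an annotated exon. These stretches, and that of Cox6a2, were picked with their values known. The YY1 matches of Ndufaf8 and Ndufs7 were centred 20 and 25 bp after the start, and the ETS matches of Ndufs1 and Uqcrh at -13 and -6 bp.
Ndufs1, ETS, chr1:63176821-63176850, minus strand: aggcctcggctACTTCCGGcggaactgcag
Uqcrh, ETS, chr4:116075063-116075092, minus strand: gagtatgccgcACTTCCGGccaggtcgccg
Ndufaf8, YY1, chr11:120098934-120098962, plus strand: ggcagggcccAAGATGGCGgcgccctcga
Ndufs7, YY1, chr10:80249463-80249491, plus strand: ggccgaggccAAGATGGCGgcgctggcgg

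Neither estrogen-related receptor match, at -48 bp of Atp5g3 and 3 bp of Sdhd, was under a footprint in either library, and of 41 such sites at all genes open in both libraries 1 and 0 were. CRE matches at Ndufa10, Ndufb2 and Uqcrfs1 were covered in full in both libraries, and the one at Ndufa11 was not covered, which makes 75.0% of sites in each library, against 87.3% and 81.8% at all open genes. CACGTG was covered in full in both at Ndufv1 and Uqcrq, and members' sites were covered at 42.9% and 28.6%, against 34.3% and 29.9%. The TATAAA match at -49 bp of Ndufa7 was the only one of 9 at open members to be covered (11.1%), against 12.8% and 10.1%, so these shares were near their background.

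Partner genes of the pathway were also mostly open, next to 62.8% of all genes and 94.2% of CpG-rich genes open in both libraries. Of 37 assembly factors and chaperones outside the member symbols, 36 were open in both libraries, with medians of 4.72 and 5.71. Atpaf2, a factor for the ATP synthase, was the highest, with 9.34 and 10.9, and Sdhaf1, a factor for complex II, had no peak. Among 12 genes of cytochrome c and ubiquinone synthesis 11 were open. The somatic cytochrome c gene Cycs had 10.3 and 10.4, and its testis counterpart Cyct was at 0 in both, as were Cox7b2 and Cox8c but not Cox6b2 among the testis isoforms of complex IV. All 14 regulator genes were open, with medians of 4.95 and 5.75, led by Esrra, which encodes an estrogen-related receptor, with 11.3 and 13.8. All 13 genes of the citric acid cycle were open (5.64 and 6.06), as were all 78 mitochondrial ribosomal protein genes (3.98 and 4.59).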

How the data were processed

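Lists of peaks and footprints and tables of cut rates from 2 DNase-seq libraries were used, made per library in mm10 coordinates. Per the text files deposited with them, they derive from alignments listed beside unfiltered ones. No header or label used here names the aligner, callers, versions or thresholds. Peak signal is a deposited value of unstated scaling, used to describe and rank. Deposited false discovery rates (adjusted p-values of the local cut rate, listed below 0.05) were read at all members and are printed only at closed members and Cox6b2. The deposited footprint value was 0.01 in all rows. Reads of the CAST/EiJ parent were placed on a C57BL/6J reference, and its effect on the signal was not tested.

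The longer list of each library was used (104654 and 81654 peaks, with 293484 and 187137 footprints), and read totals were not analysed here, so the depth is unknown. Starts came from all transcripts of GENCODE M21 on GRCm38, and sequence from GRCm38.p6 (RefSeq assembly). The reference start was that of the coding transcript ranked first by APPRIS class, support level, CCDS and length. A gene was open if at least 1 bp of a peak lay in the 500 bp window, and a match was covered at 50% or more. There is no test, since 1 group of 2 libraries allows none, and members are set beside all protein-coding genes. Members, lists and consensus letters were chosen with earlier results of these data known. Named were, per complex, the 3 highest and 2 lowest, closed members, tissue isoforms with partners, the most footprints and covered NRF1 matches, and in other lists the highest and the closed genes, with further members added to account for the group; 1 member that the rule names is counted but not reported here by itself. Overlap and motif code was tested on simulated data. Python 3.11.15, pysam 0.24.0 and bedtools 2.31.1 were used.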

Additional observations from a re-analysis of the deposited data

How the results depend on the processing

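Counts of open members were 85 to 89 under every alternative run, and those of members with a footprint 86 to 87. The runs used windows of 250, 1000 and, for peaks, 2000 bp, the reference start alone, and peak centres in the window. Others used the shorter peak list, only peaks in the top 50% by signal, or only peaks or footprints shared by the libraries. The last run left out the second Atp5o record and was chosen after its value was seen. All counts were within 1.5 times of those reported, though with 87 of 94 members reported none could rise that far. The median signal of members (mean of the libraries 5.17, SD 0.416, n = 2) was also within that spread in each alternative run, with 4.88 and 5.46 when 1 library was left out and 5.39 for autosomal members alone, also added after the values were seen. Tissue isoforms depended on the settings: 4 of 8 were open in each library and in both with a 2000 bp window, and the shorter peak list left 1 in replicate 2 and 1 in both, against 2 as reported. NRF1 letters occurred at 28 members when the window ran 500 bp to each side of the start, against 17. That window is longer, and the share of all genes with a match in it is not given here. Leaving out 1 library gave 19 and 20 NRF1 sites under footprints. No paired analysis was possible because there is 1 group. Depth is unknown, so what it limits could not be measured.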
